A study of Mus musculus with 80 samples.

Results

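Polycomb group proteins keep developmental genes silent in embryonic stem cells (ESCs). Polycomb repressive complex 2 (PRC2) methylates lysine 27 of histone H3, and PRC1 ubiquitinates histone H2A. Canonical PRC1 holds a CBX protein that reads the PRC2 mark and a PHC protein that joins complexes together, whereas variant PRC1 holds RYBP or YAF2 instead and can reach chromatin without that mark. Transfer of ESCs from serum to 2i is known to change where the PRC2 mark lies.

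The genes described here are 31 genes for subunits of PRC1 and PRC2, taken by symbol from an RNA-seq table of 25965 rows, in which all 31 were found. The RNA came from the wild-type mouse ESC line E14, either in serum medium with LIF (3 libraries) or after 6, 24 or 72 h in 2i (3 libraries each), the serum-free N2B27 medium with LIF, the MEK inhibitor PD0325901 and the GSK3 inhibitor CHIR99021. A second assay measured dimethylated lysine 9 of histone H3 (H3K9me2), a repressive mark, by ChIP-seq in E14 cells in serum, after 24 h of 2i (24h2i) and in long-term 2i (LT2i), with 2 bound libraries and 1 input each. All groups are 1 wild-type line. The study calls its replicates of the RNA time course biological, and for the ChIP-seq libraries the sources used here do not say, so that the p-values for ChIP-seq measure a spread that may be technical. E14 libraries expressed the ESC markers (summed level 980 to 1650 on the linear scale over 8 genes, against 4.54 to 9.79 for 7 fibroblast markers that feeder cells would bring).

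Expression values are log2 values per gene, corrected by the authors for gene length and library depth, so 1 unit is a 2-fold difference. Levels and shares are compared between genes on that scale, which rests on gene lengths that the sources used here do not give. A gene was tested with limma if it reached 0 in at least 3 of the 12 libraries, which 12306 rows did, and a call needed an adjusted p under 0.05 (Benjamini-Hochberg over all 12306). Of the 31 Polycomb genes 30 were tested. Cbx8 was too low, and 28 were at 0 or more in all 12 libraries, the exceptions among those tested being Phc3 and Phf19. The number of cells and the RNA per cell cannot be told apart in bulk samples. Libraries of a group correlated at 0.9876 or more in serum and at 6 h, but down to 0.9468 at 24 h (libraries 1 and 3) and 0.9626 at 72 h (libraries 2 and 3). The deviation of each gene from its own mean over the 12 libraries also ran with its span on the chromosome. The rank correlation across genes was -0.424, -0.423 and -0.066 in 24 h libraries 1, 2 and 3. It was 0.147 to 0.235 in serum, 0.237 to 0.3 at 6 h, and 0.0845, -0.256 and 0.25 in 72 h libraries 1, 2 and 3. Among markers of other cell types, 2 of 4 genes of 2-cell-like cells were called higher at 24 h (Tcstv1 and Tcstv3, with a summed level over all 4 of 24.3 to 39.9 in serum and of 37.7 to 62.7 at 24 h), and both fibroblast genes tested were called lower at 72 h (Col1a1 and Thy1). The summed level of 5 trophoblast genes went from 10.4 to 12.9 in serum to 41.2 to 45.7 at 72 h, with Tfap2c alone called higher and the means of Cdx2 and Elf5 below 0 on the log2 scale in both, and that of 4 neural genes from at most 14.2 in serum to at most 6.27 at 72 h. Their part in the changes below was not tested.

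Promoter sequences are shown for the 2 largest rises (Bmi1 and Phc2) and the largest fall (L3mbtl2) called at 72 h among genes with a RefSeq promoter window wholly outside the gene's span, because H3K9me2 was measured over the same starts. Each is the 250 bases before the start, from RefSeq on GRCm38.p6, 5′ to 3′, with CpG dinucleotides in capitals. The Bmi1 promoter lies at chr2:18676768-18677017, that of Phc2 at chr4:128654452-128654701 and that of L3mbtl2 at chr15:81663639-81663888, all on the plus strand.
Bmi1: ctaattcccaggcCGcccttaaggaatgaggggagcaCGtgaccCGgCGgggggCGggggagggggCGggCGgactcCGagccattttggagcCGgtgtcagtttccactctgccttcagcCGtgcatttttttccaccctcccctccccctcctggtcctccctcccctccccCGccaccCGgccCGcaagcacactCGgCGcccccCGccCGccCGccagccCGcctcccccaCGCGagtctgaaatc
Phc2: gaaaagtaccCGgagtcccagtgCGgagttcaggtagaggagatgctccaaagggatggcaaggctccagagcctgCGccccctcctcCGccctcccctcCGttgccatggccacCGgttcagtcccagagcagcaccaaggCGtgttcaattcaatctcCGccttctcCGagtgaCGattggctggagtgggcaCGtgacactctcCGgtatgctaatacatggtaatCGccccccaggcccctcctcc
L3mbtl2: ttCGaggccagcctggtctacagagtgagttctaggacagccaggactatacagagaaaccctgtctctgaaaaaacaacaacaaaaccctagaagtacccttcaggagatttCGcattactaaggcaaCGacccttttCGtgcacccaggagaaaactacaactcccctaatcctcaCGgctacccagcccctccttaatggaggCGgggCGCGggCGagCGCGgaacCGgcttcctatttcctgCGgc

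The Bmi1 window held 21 CpGs, a number that 16.3% of the 32851 promoters in the table reach. Phc2 and L3mbtl2 held 13 each, reached by 31.5%. Of the 31 genes 27 had a promoter row and 24 had one within 1000 bp of the start in the table, 14 of them outside the gene's span. These 24 held a median of 20 CpGs (1 in Aebp2 to 45 in Scmh1), against a median of 6 over all promoters. The letters TCCCGC, the core that E2F6 is known to bind, were found on either strand in 9 of the 24 (37.5%) and in 16.9% of all promoters, among them those of E2f6, Suz12 and Phf19. The 6 letters hold a CpG themselves, and a share over promoters of like CpG number was not taken. A match of 6 letters is a description of sequence and not of binding.

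After 6 h in 2i, 6 of the 30 Polycomb genes tested had changed (20%, against 15.6% of all genes), 3 higher and 3 lower, where 9.13% of all genes were higher and 6.48% lower. Jarid2, Kdm2b and Eed fell and Bmi1, E2f6 and Ezh2 rose. After 24 h 21 had changed (70%, against 63.3% of all genes), 7 higher and 14 lower, where 34.2% of all genes were higher and 29.1% lower. After 72 h 15 had changed, 7 higher and 8 lower, which is 50% against 52.2% of all genes, of which 25.7% were higher and 26.5% lower. The share of Polycomb genes called was thus near that of all genes at each time. Their median change was 0.09, -0.31 and 0.06 at 6, 24 and 72 h, beside 0.01, 0.11 and -0.01 over all genes tested. Libraries of the groups compared did not overlap for 13, 21 and 21 of the 30 genes, beside 44.4%, 64.7% and 63.5% of all genes. The 3 comparisons share the serum libraries. With library 3 of the 24 h group left out, 25 genes were called at 24 h (8 higher, 17 lower, against 71.9% of all genes). With library 2 of the 72 h group left out, 13 were called at 72 h (45.2% of all genes). A fit of the 6 libraries of serum and 6 h alone called 12 genes at 6 h (29.1% of all genes).

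**Figure D1:**
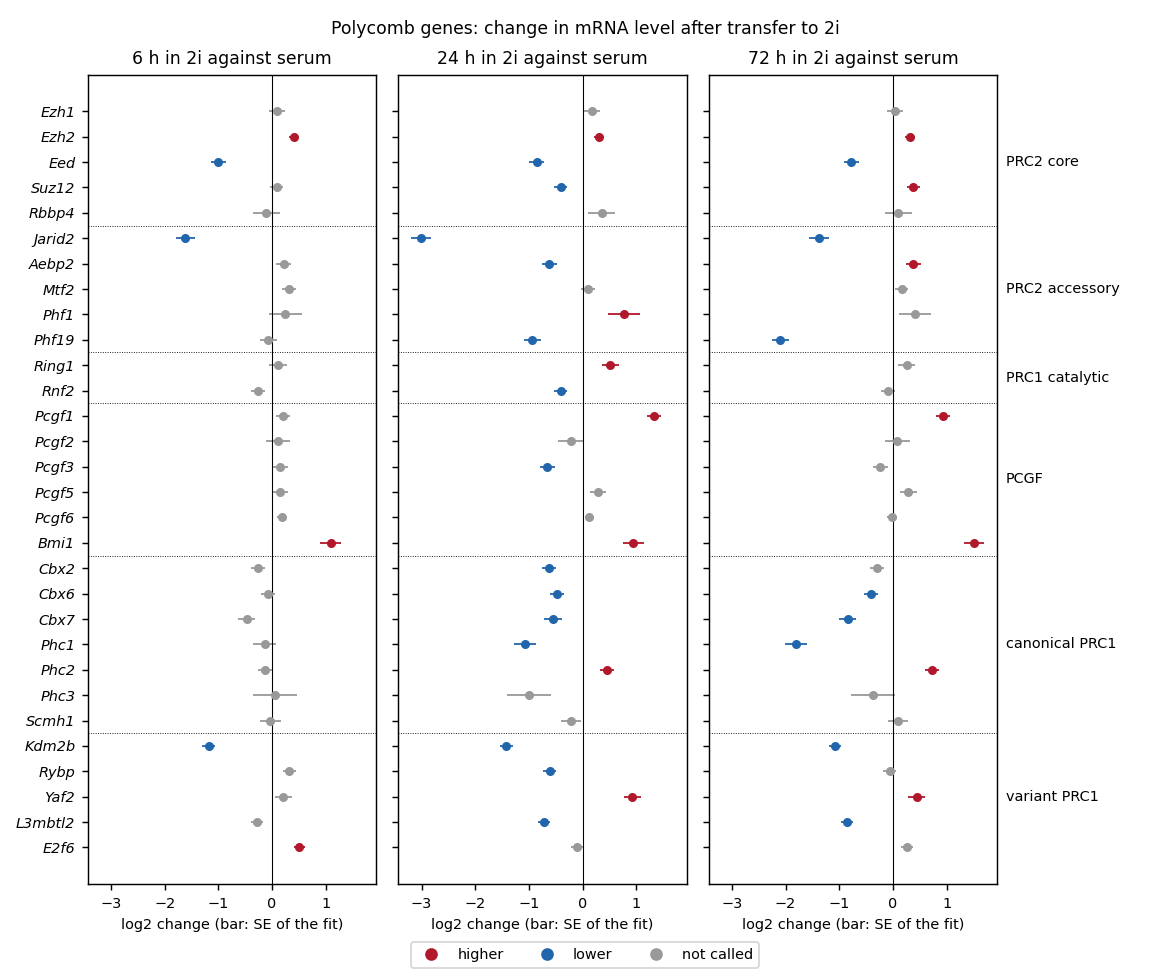
Log2 change in mRNA level (x axis) of the 30 Polycomb genes tested, by role, at 6, 24 and 72 h in 2i against serum, with the standard error of the fit as a bar and genes called higher in red and lower in blue. The counts of called genes are 6, 21 and 15, and Jarid2 at 24 h (-3.01) is the farthest from 0.

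Jarid2, Kdm2b and Eed were lower and Bmi1 and Ezh2 higher at all 3 times. Cbx6, Cbx7, L3mbtl2, Phc1 and Phf19 were called lower, and Pcgf1, Phc2 and Yaf2 higher, at 24 and 72 h. Cbx2, Pcgf3, Rnf2 and Rybp were called lower and Phf1 and Ring1 higher at 24 h alone among these times, and E2f6 was called higher at 6 h alone. Aebp2 and Suz12 were lower at 24 h and higher at 72 h. With all libraries, no call was made at any time for Ezh1, Mtf2, Pcgf2, Pcgf5, Pcgf6, Phc3, Rbbp4 and Scmh1. Of these, Pcgf2, Phc3 and Scmh1 were called lower and Pcgf5 and Rbbp4 higher at 24 h without 24 h library 3.

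Among the core genes of PRC2, Eed fell and the catalytic gene Ezh2 rose. Eed, whose product binds methylated lysine 27 and stimulates the enzyme, was at 6.54, 6.53 and 6.36 in the serum libraries, at 5.60, 5.50 and 5.35 at 6 h, at 5.89, 5.65 and 5.35 at 24 h and at 5.76, 5.78 and 5.55 at 72 h. All 9 libraries in 2i lay below all 3 in serum. The level was 1.99-fold lower at 6 h (limma adjusted p = 0.00059) and 1.72-fold lower at 72 h (log2 change -0.78, SE 0.14, adjusted p = 0.000773). Ezh2 rose by 0.40, 0.30 and 0.32 at the 3 times (SE 0.09 each), from 4.14 ± 0.04 in serum to 4.45 ± 0.03 at 72 h (SD, n = 3). Its call at 6 h was lost once the trend with gene span was removed (0.38, adjusted p = 0.0627 with limma), though the change hardly moved, and that at 24 h in a fit of serum and 24 h alone (adjusted p = 0.071). The other methyltransferase, Ezh1, was at 1.67 ± 0.08 in serum and 1.70 ± 0.18 at 72 h, and Ezh2 made up 83.9% to 85.7% of the summed level of both in the serum libraries and 86.0% to 88.3% at 72 h.

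Suz12, which encodes the subunit that PRC2 is built on, moved in opposite directions at 24 and 72 h. Its values were 5.45, 5.40 and 5.53 in serum, 5.27, 4.87 and 5.02 at 24 h and 5.87, 5.70 and 5.93 at 72 h. The 24 h libraries lay below and the 72 h libraries above all serum libraries. The change was -0.41 at 24 h (SE 0.12, adjusted p = 0.00978) and 0.38 at 72 h (adjusted p = 0.0169), and the step from 24 to 72 h was 0.78 (adjusted p = 0.000541, limma). The fall at 24 h did not pass with the trend with gene span removed (-0.21, adjusted p = 0.125), and the rise at 72 h did not pass without serum library 2 or without 72 h library 1 or 3. Rbbp4, a histone-binding subunit shared with other complexes, was at 5.00 ± 0.26 in serum and 5.10 ± 0.31 at 72 h, and was not called with all libraries. Its change at 24 h was 0.36, and without 24 h library 3 it was called higher (0.63, limma adjusted p = 0.0151).

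The accessory genes of PRC2 held the largest changes. Jarid2, which helps to bring PRC2 to its targets, was at 5.92, 5.92 and 6.19 in serum, at 4.34, 4.36 and 4.47 at 6 h, at 2.67, 2.94 and 3.38 at 24 h and at 4.71, 4.31 and 4.86 at 72 h. The lowest serum library was above every library in 2i, and the 24 h libraries were the lowest. The level was 3.07-fold lower at 6 h, 8.06-fold lower at 24 h (log2 change -3.01, SE 0.18, limma adjusted p = 3.25e-07) and 2.60-fold lower at 72 h (-1.38, adjusted p = 8.21e-05). From 24 to 72 h it rose again by 1.63 (adjusted p = 0.000106). At 192 kb Jarid2 has the longest span of the 31 genes. With the trend with gene span removed, its change was -2.48 at 24 h (limma adjusted p = 1.16e-08). The step from 24 to 72 h was then 1.24 (adjusted p = 4.72e-06).

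Aebp2, its usual partner in the same form of PRC2, was at 3.46, 3.45 and 3.69 in serum, at 2.74, 2.80 and 3.19 at 24 h and at 3.92, 3.75 and 4.06 at 72 h. As for Suz12, the 24 h libraries lay below and the 72 h libraries above those in serum. The changes were -0.62 at 24 h (SE 0.14, adjusted p = 0.00244) and 0.38 at 72 h (adjusted p = 0.0354), with a step of 1.00 between them (adjusted p = 0.000345, limma). The rise at 72 h was lost when serum library 1 or 2 or 72 h library 1 or 3 was left out. Jarid2 made up 84.6% to 85.0% of the summed level of Jarid2 and Aebp2 in serum and 59.6% to 63.5% at 72 h.

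The 3 Polycomb-like genes encode proteins that bind CpG-rich DNA and define the other form of PRC2. Phf19 was at 0.90, 1.10 and 1.18 in serum, at 1.05, 0.86 and 1.04 at 6 h, at 0.23, 0.32 and -0.18 at 24 h and at -1.13, -1.05 and -0.95 at 72 h. The 6 h libraries overlapped those in serum, and the 24 and 72 h libraries lay below them. Phf19 was 1.91-fold lower at 24 h (log2 change -0.94, SE 0.16) and 4.30-fold lower at 72 h (-2.10, limma adjusted p = 1.07e-06), the largest fall of the 30 genes at 72 h. With a pseudocount of 1 on the linear scale, which shrinks the changes of low genes, the change was -1.05 at 72 h and no longer the largest, that at 24 h was -0.56 and the step from 24 to 72 h was -0.50, all still called. Mtf2 had the highest mean of the 31 genes over all libraries and was not called with all libraries (5.75 ± 0.04 in serum, 5.91 ± 0.11 at 72 h). Its 6 h libraries (6.12, 6.06 and 6.00) lay above those in serum (5.78, 5.77 and 5.70). A fit of serum and 6 h alone called Mtf2 higher (0.31, limma adjusted p = 0.00886). Mtf2 made up 90.4% to 93.1% of the summed level of the 3 genes in serum and 91.7% to 94.9% at 72 h, while the share of Phf19 went from 3.16% to 3.94% in serum to 0.726% to 0.804% at 72 h. Phf1 was called higher at 24 h alone (0.78, SE 0.30, limma adjusted p = 0.0378). The call was lost with the span trend removed (adjusted p = 0.255) and, in a separate fit, without the filter on low values. It was also lost on leaving out serum library 1 or 2, 6 h library 2 or 24 h library 3.

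**Figure D2:**
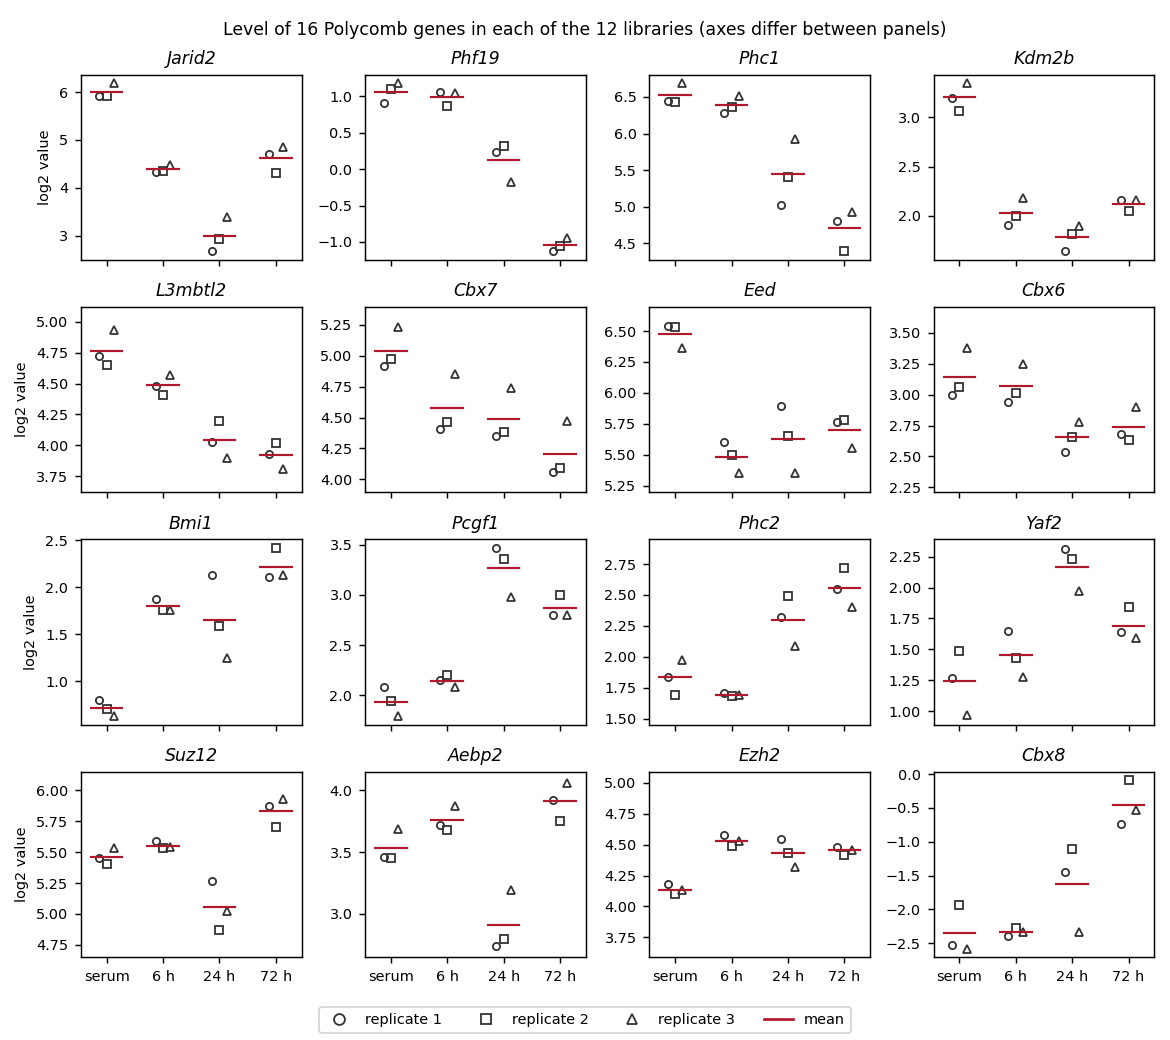
Log2 level (y axis, a scale of its own in each panel) of 16 Polycomb genes in the 12 libraries by condition (x axis), with 1 symbol per replicate number and the mean as a red line. Phf19 and Phc1 step down to 72 h, Jarid2 is lowest at 24 h, Suz12 and Aebp2 dip at 24 h, and Cbx8 was too low to be tested.

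The genes for the ubiquitin ligases of PRC1 were called at 24 h alone. Rnf2 (RING1B) made up 94.2% to 96.3% of the summed level of Rnf2 and Ring1 in serum and 93.7% to 94.6% at 72 h. At 24 h Rnf2 was lower (-0.41, SE 0.13, adjusted p = 0.0157) and Ring1 higher (0.52, SE 0.16, adjusted p = 0.015, limma), and neither call held with the span trend removed, where the change was -0.32 for Rnf2 (adjusted p = 0.0569) and 0.19 for Ring1 (adjusted p = 0.209). The Rnf2 call was also lost in a fit of serum and 24 h alone and without serum library 1 or 2, and the Ring1 call without serum library 1 or 24 h library 1. Neither was called at 72 h.

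The PCGF proteins each define a form of PRC1. Bmi1 (PCGF4), which pairs with CBX and PHC proteins in canonical PRC1, was at 0.80, 0.71 and 0.63 in serum, at 1.88, 1.76 and 1.76 at 6 h, at 2.13, 1.59 and 1.25 at 24 h and at 2.11, 2.42 and 2.13 at 72 h. Every library in 2i lay above those in serum. Bmi1 was 2.13-fold higher at 6 h (log2 change 1.09, SE 0.19, adjusted p = 0.00221) and 2.84-fold higher at 72 h (1.51, limma adjusted p = 5.15e-05), the largest rise of the 30 genes at 72 h. Its near relative in canonical PRC1, Pcgf2 (MEL18), was not called with all libraries (4.78 ± 0.11 in serum, 4.85 ± 0.28 at 72 h) and stayed above Bmi1, by 4.07 in serum and 2.64 at 72 h on the log2 scale. At 24 h the change of Pcgf2 was -0.22, and without 24 h library 3 it was called lower (-0.52, limma adjusted p = 0.0119). In that fit the step of Pcgf2 from 24 to 72 h was also called (0.60, limma adjusted p = 0.00921).

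Pcgf1, which defines the variant complex that holds KDM2B and BCOR, was at 2.08, 1.94 and 1.79 in serum, at 3.47, 3.36 and 2.98 at 24 h and at 2.80, 3.00 and 2.80 at 72 h. Both groups in 2i lay above serum. It was 2.52-fold higher at 24 h (1.33, SE 0.13, adjusted p = 1.14e-05) and 1.91-fold higher at 72 h (0.93, adjusted p = 0.000153, limma). Pcgf3 was lower at 24 h (-0.66, SE 0.14) and at 3.00 ± 0.16 at 72 h, where it was not called, against 3.24 ± 0.07 in serum. Pcgf5 and Pcgf6, of the complexes named after them, were not called at any time with all libraries. At 24 h Pcgf5 (0.29) was called higher with the span trend removed (0.68, adjusted p = 0.0146, limma) and without 24 h library 3 (0.47, adjusted p = 0.00422). It was also called higher at 72 h in 3 of 22 alternatives, and Pcgf6 at 6 h in 2 of 22. The shares of the 6 PCGF genes in their summed level ranged in serum from 2.30% ± 0.18 for Bmi1 to 38.5% ± 2.15 for Pcgf2 (mean ± SD, n = 3), and at 72 h from 5.97% ± 1.06 to 37.0% ± 4.99.

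In canonical PRC1 1 of the 7 genes tested was higher (Phc2) and 3 were lower (Phc1, Cbx6 and Cbx7) at 72 h, beside 25.7% and 26.5% of all genes. Cbx7, the reader of the PRC2 mark that is best known in ESCs, was at 4.92, 4.97 and 5.23 in serum, at 4.41, 4.46 and 4.85 at 6 h, at 4.35, 4.38 and 4.74 at 24 h and at 4.06, 4.09 and 4.47 at 72 h. All groups in 2i lay below serum, by 0.55 at 24 h (SE 0.16) and by 0.84 at 72 h (1.79-fold lower, limma adjusted p = 0.00133). The 24 h call was lost with the span trend removed (adjusted p = 0.097) and without serum library 3. Cbx6 was at 3.00, 3.06 and 3.38 in serum and at 2.68, 2.63 and 2.90 at 72 h, a fall by 0.41 (SE 0.13, adjusted p = 0.0229) that was lost without serum library 3 or without 72 h library 1 or 2. Cbx2 was lower at 24 h (-0.63, SE 0.13) and at -0.30 against serum at 72 h, where the call was not made (adjusted p = 0.0781, limma).

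Cbx8 had the lowest mean of the 31 genes over all libraries and was left out of the test, though at 72 h Phf19 was lower. It was at -2.53, -1.93 and -2.58 in serum, at -1.44, -1.11 and -2.34 at 24 h and at -0.73, -0.09 and -0.53 at 72 h. The 72 h libraries lay above all others. Its share of the summed level of Cbx2, Cbx6, Cbx7 and Cbx8 was 0.308% to 0.575% in serum and 1.98% to 3.30% at 72 h, while that of Cbx7 was 68.6% to 69.0% and 57.3% to 63.4%.

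Phc1 encodes the PHC protein that is most abundant in these cells at the RNA level. It was at 6.45, 6.43 and 6.69 in serum, at 6.28, 6.36 and 6.51 at 6 h, at 5.02, 5.41 and 5.92 at 24 h and at 4.81, 4.39 and 4.93 at 72 h. The 6 h libraries overlapped those in serum, and the later ones lay below. Phc1 was 2.10-fold lower at 24 h (-1.07, SE 0.21, adjusted p = 0.00115) and 3.51-fold lower at 72 h (-1.81, limma adjusted p = 2.91e-05). Phc2 was at 1.84, 1.69 and 1.97 in serum, at 2.32, 2.49 and 2.09 at 24 h and at 2.55, 2.72 and 2.40 at 72 h. It lay above serum at both times, by 0.46 at 24 h and 0.72 at 72 h (1.65-fold, SE 0.13, adjusted p = 0.000658, limma).

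The share of Phc1 in the summed level of the 3 PHC genes was 94.6% to 95.0% in serum, 85.5% to 91.3% at 24 h and 74.1% to 81.1% at 72 h, and that of Phc2 was 3.68% ± 0.172, 10.4% ± 3.52 and 18.0% ± 4.75 (mean ± SD, n = 3). The log2 difference between Phc1 and Phc2 went from 4.69 in serum to 2.16 at 72 h (exact permutation p = 0.1, two-sided, 3 against 3 libraries, the smallest that this design can give, and 0.17 after Benjamini-Hochberg adjustment over 13 pairs of genes of a family or complex at 3 times). Phc3 varied most among the 24 h libraries, at -0.94, -1.04 and 0.61, and was not called (-0.99, limma adjusted p = 0.0543). It was called lower at 24 h in 6 of 21 alternatives, among them the one without 24 h library 3 (-1.52, adjusted p = 0.000817), where the step from 24 to 72 h was also called (1.14, adjusted p = 0.00842).

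**Figure D3:**
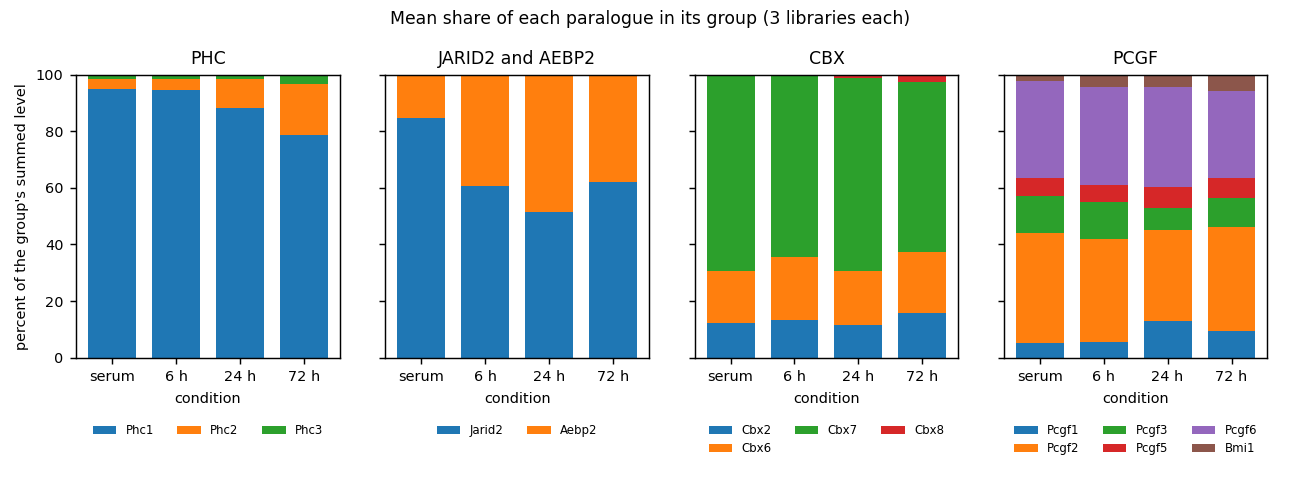
Mean share in percent (y axis, from 0) of each gene in the summed linear level of its group, for the PHC genes, Jarid2 with Aebp2, the CBX genes and the PCGF genes, by condition (x axis, 3 libraries each). Phc1 goes from 94.8% in serum to 78.5% at 72 h, and Jarid2 from 84.8% to 62.2%.

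Of the genes for variant PRC1, Kdm2b and L3mbtl2 fell and Yaf2 rose. Kdm2b, which binds unmethylated CpG islands and takes PRC1 to them, was at 3.20, 3.07 and 3.35 in serum, at 1.91, 2.00 and 2.18 at 6 h, at 1.64, 1.82 and 1.90 at 24 h and at 2.16, 2.05 and 2.16 at 72 h. All 9 libraries in 2i lay below serum. The level was 2.26-fold lower at 6 h (-1.18, SE 0.12, adjusted p = 3.79e-05) and 2.12-fold lower at 72 h (-1.08, adjusted p = 1.43e-05, limma). L3mbtl2, of the complex that also holds E2F6 and PCGF6, was at 4.72, 4.65 and 4.93 in serum, at 4.03, 4.20 and 3.90 at 24 h and at 3.93, 4.02 and 3.81 at 72 h. Both later groups lay below serum, by 0.72 and by 0.85 (SE 0.11, limma adjusted p = 8.69e-05 at 72 h).

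Rybp and Yaf2 take the same place in variant PRC1. Yaf2 was at 1.27, 1.49 and 0.97 in serum, at 2.31, 2.23 and 1.97 at 24 h and at 1.64, 1.84 and 1.59 at 72 h. It rose by 0.93 at 24 h (SE 0.16, adjusted p = 0.000442) and by 0.44 at 72 h (adjusted p = 0.0349, limma), a call that was lost under quantile normalisation and without serum library 1 or 3 or 72 h library 1 or 2. Rybp fell by 0.61 at 24 h and was at 5.17 ± 0.14 at 72 h against 5.23 ± 0.10 in serum. The share of Yaf2 in the summed level of both was 4.61% to 7.38% in serum, 12.3% to 17.4% at 24 h and 7.24% to 10.0% at 72 h. E2f6 was called at 6 h (0.51, SE 0.11, adjusted p = 0.00708, limma) and was at 2.87 ± 0.19 in serum and 3.13 ± 0.07 at 72 h.

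Between 24 and 72 h, 12 of the 30 genes moved (40%, against 31.6% of all genes), 8 up and 4 down. Libraries of both times did not overlap for 11 (33.5% of all genes). Jarid2, Aebp2 and Suz12 made the largest steps up, and Phf19 (-1.17) and Phc1 (-0.74) went further down. Cbx6, Cbx7, Eed, Jarid2, Kdm2b, L3mbtl2, Phc1 and Phf19 were called lower at both 24 and 72 h. Of the genes called lower at 24 h, Jarid2, Kdm2b, Suz12, Aebp2, Pcgf3 and Rybp were called higher at 72 h than at 24 h. The shares of all genes that did either were not counted. The step of Kdm2b (0.34, limma adjusted p = 0.0451) lost its call in 11 of 21 alternatives and was -0.04 with the span trend removed, and that of Pcgf3 (0.42, adjusted p = 0.042) lost it in 12 of 21. The step of Bmi1 (0.56, limma adjusted p = 0.0429) lost it in 15 of 21, with values from 0.35 to 0.80, that of Pcgf1 in 10, Yaf2 in 7, Phc1 in 4, E2f6 in 3 and Rybp in 1. A fit of the 6 libraries of these 2 times alone called 4 genes (12.9% of all genes), and leaving out 1 library gave between 6 and 15. The highest count, 15, came without library 3 at 24 h (54.4% of all genes). The lowest, 6, came without library 2 at 24 h (21.4%) and without library 1 at 72 h (19.7%). Without library 1 at 24 h (23.2%), library 3 at 72 h (22.5%) or library 2 at 6 h (27.1%), 7 were called.

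At 24 h the change over all genes went with span, from a median of 0.53 in the shortest of 5 equal groups to -0.41 in the longest. Of the Polycomb genes, 15 spanned up to 33.4 kb and 15 more than that. At 24 h, 4 of the shorter were called higher and 7 lower, beside 40.3% and 20.6% of all genes of that span, and of the longer 3 and 7, beside 22.4% and 45.4%. With the trend with span removed in each library, 19 genes were called at 24 h (62.4% of all genes), 8 higher and 11 lower, and 16 at 72 h (55.5%). The change at 24 h then became larger for Ezh2 (0.64) and Phc2 (0.91), among others. It became smaller for Jarid2 (-2.48, from -3.01), Kdm2b (-0.91), Pcgf1 (1.00), Pcgf3 (-0.43), Aebp2 (-0.32) and Rybp (-0.30), among others. The genes just named were all still called, and Pcgf5 (0.68), Ezh1 (0.31) and Scmh1 (0.28) were called higher. The part of span in the changes of single genes was not tested further.

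**Figure D4:**
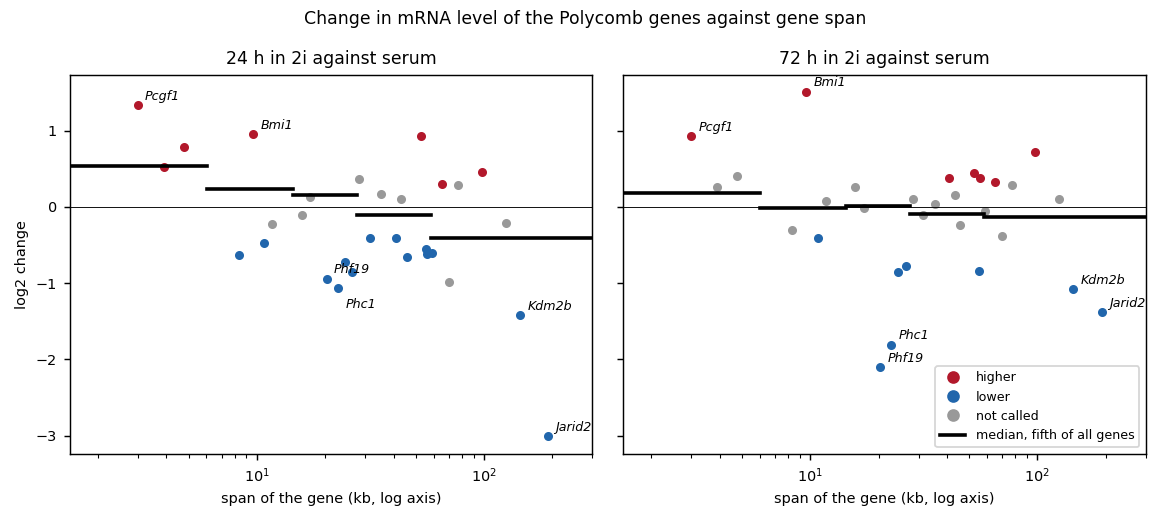
Log2 change (y axis) of the 30 Polycomb genes against the span of the gene in kb (x axis, log scale) at 24 and 72 h in 2i, coloured by call, with the median change of 5 equal groups of all genes by span as black lines. At 24 h the black lines fall from 0.53 to -0.41, and Jarid2, Phf19, Phc1 and Kdm2b lie below the line of their own group.

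Genes for proteins that join or work with these complexes were taken as a list of 21 partner genes, of which 20 were tested. At 24 h 1 was higher and 11 lower (34.2% and 29.1% of all genes), and at 72 h 2 were higher and 8 lower (25.7% and 26.5%), with a median change of -0.10, beside -0.01 over all genes. Bcor (-1.01) and Mga (-0.99), scaffold genes of variant complexes, fell, as did Epop (-0.77), Tfdp1 (-0.77) and Usp7 (-0.76). Without 72 h library 2, a fit added after seeing the data, 5 were lower at 72 h and Mga was not called (-0.71, limma adjusted p = 0.0508).

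Enzymes known to act against Polycomb repression, and subunits of their complexes, were given by 15 genes, all tested. None was called at 6 h with limma, where 15.6% of all genes were called. At 24 h 1 was higher and 9 lower, and at 72 h 1 was higher and 7 lower (median -0.55), beside the same shares of all genes (34.2% and 29.1%, then 25.7% and 26.5%). Under older symbols in the table, the genes for the lysine 4 methyltransferases Kmt2a (-1.78, SE 0.50), Kmt2d (-1.45, SE 0.43) and Kmt2c (-0.97, SE 0.37) fell at 72 h, as did Asxl1 (-1.12), Kdm6a (-0.93), the demethylase of lysine 27, and Kmt2b (-0.85). These falls varied between libraries, with Kmt2a at 1.33, 0.58 and 2.19 at 72 h against 3.03, 3.09 and 3.32 in serum. Without 72 h library 2, 4 of the 15 were lower, and Kmt2d (-1.14), Kmt2c (-0.66) and Kmt2b (-0.61) were not called (limma adjusted p = 0.0631, 0.175 and 0.172). With the span trend removed 7 were lower at 72 h, among them all 6 named here.

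Genes known as Polycomb targets in ESCs were mostly low, and 14 of 36 passed the filter on low values. At 72 h 5 of the 14 were higher and 4 lower, beside 25.7% and 26.5% of all genes. The mesodermal gene Wt1 (-4.64, SE 0.24) and the neuronal gene Neurod1 (-4.31, SE 0.31) fell, as did Hand1 (-1.65), and Neurod1 and Hand1 are also among the neural and trophoblast markers. Bmp7 (3.72, SE 0.20), Irx3 (3.54, SE 0.20) and the cell cycle inhibitor gene Cdkn2a (1.44, SE 0.25) rose. Passing the filter through the group where a gene was high fixes part of such differences.

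H3K9me2 was given as log2 reads per bin of 2000 bp, scaled by the authors to the library with the most reads, over the whole span of each gene (its body) and over the bin of its start with 1 bin on each side. Bound libraries held 14396552 to 19279328 reads. On the scale given, the totals of bound and input libraries were nearly equal, at 23361958 to 23871105. The values are therefore relative within a library, and an even loss of the mark over the whole genome would not show in them. The paper reports a rapid loss of this mark by western blot and immunofluorescence. The total level of the mark was not tested here. In serum all 31 Polycomb gene bodies were below their input, by a median of 2.16 on the log2 scale, beside 0.92 over all genes, of which 74.6% were below input. The bound level minus input ran from -4.60 in Cbx8 to -0.21 in Pcgf5 over the bodies.

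After 24 h of 2i no Polycomb gene body was called, as for all 23602 genes tested (0%, with 3 Polycomb genes and 2758 of all genes at an unadjusted p under 0.05 in limma). Because the values are relative, the absence of calls does not tell whether the total level of the mark was kept. Over gene starts none was called either (0.0168% of all genes, with 7 and 2016 at an unadjusted p under 0.05), with a median change of 0.26 beside 0.05 over all genes. Many of these starts rest on few reads, and bins without reads stand at a floor just below the value of 1 read. That value was 1.225 and 1.271 in the serum libraries and 1.631 and 1.571 at 24h2i, on the linear scale. An empty start therefore reads higher at 24h2i, and that of Phc1, for example, was at 0.19 and 0.25 in serum. The part of the floor in the median change was not tested. With input subtracted, the start of Ring1 was called higher (1.80, SE 0.42, adjusted p = 0.0487, 0.909% of all genes). The 1 input of a condition was subtracted from both bound libraries, so this p-value leaves out the spread of the inputs. At the Ring1 start the input went from 4.86 in serum to 4.30 at 24h2i. The bound change alone was 1.24 (limma adjusted p = 0.469).

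In LT2i 22 of the 31 bodies were called lower and none higher, where 55.5% of all genes were called, 49.4% lower and 6.06% higher. Their median change was -0.96 and that of all genes -0.60. Rbbp4 went from 2.42 and 2.43 in serum to 0.86 and 1.01 in LT2i (-1.49, SE 0.18, limma adjusted p = 0.00212). Pcgf3 went from 4.10 and 4.14 to 2.75 and 2.51 (-1.49, SE 0.14), and Phc2 from 4.04 and 3.87 to 2.67 and 2.46 (-1.39, SE 0.14). In each the 2 conditions did not overlap.

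Ring1, Bmi1 and Pcgf5 were among the 9 bodies not called. Ring1 was at 3.09 and 2.57 in serum and at 3.52 and 3.44 in LT2i (0.65, SE 0.23, adjusted p = 0.0554), and Bmi1 at 2.77 and 2.60 and at 2.90 and 2.95 (0.23, SE 0.16, adjusted p = 0.252, limma). Pcgf5, with the most H3K9me2 of the 31 in serum, was at 4.42 and 4.36 and at 4.44 and 4.29. The directions depend on the scaling to total reads. Each library was also centred on its median over all genes, which moved every change up by 0.90. Then 4 bodies were called lower (Rbbp4, Pcgf3, Phc2 and Phc3) and 6 higher (Ring1, Bmi1, Pcgf5, Phf1, Yaf2 and Scmh1), where 46.4% of all genes were called. Higher after centring, here and for starts below, means relative to the other genes of a library and not a gain of the mark. The body of Phf1 was at 0.24 and 0.72 in serum and at 0.74 and 0.42 in LT2i, near the floor of bins without reads. On the authors' scaling Scmh1 was called lower (-0.42, SE 0.13, limma adjusted p = 0.0387). Fewer bodies were called when 1 bound library was left out, which leaves 1 library in a group. The median change of the bodies was -0.91 without library 1 of serum, beside -0.57 over all genes. Without library 1 of LT2i it was -0.98, beside -0.61.

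Over gene starts 4 of the 31 were called lower in LT2i and none higher, where 26.2% of all genes were called, 22.2% lower and 4.06% higher. These were Phc2 (4.23 and 2.85 in serum, 2.48 and 1.80 in LT2i, -1.40, SE 0.40, adjusted p = 0.00989), Cbx6 (-1.35), Phf19 (-1.27) and Mtf2 (-1.12). In LT2i the start of Mtf2 was at 0.26 and 0.42, near the floor of bins without reads. The start of Bmi1, with the 21 CpGs shown above, was at 0.67 and 0.69 in serum and at 1.07 and 1.55 in LT2i (0.63, SE 0.43, limma adjusted p = 0.288), and that of L3mbtl2 changed by -1.10 (SE 0.47, adjusted p = 0.0792). The 4 calls did not all hold when 1 library of serum or LT2i was left out, which leaves 1 library in a group. After centring on the median 3 starts were called, all higher (E2f6, Bmi1 and Phf1), where 28.2% of all genes were called. The start of Phf1 was at 0.19 and 0.25 in serum and at 0.70 and 0.42 in LT2i, also near the floor. With input subtracted E2f6 was higher and Mtf2, Cbx6 and Phc2 lower, though those p-values leave out the spread of the inputs. Over the body, H3K9me2 was called lower for Phc2, whose RNA rose at 72 h, and for Phf19 (-1.33) and Cbx7 (-0.82), whose RNA fell, and the RNA and ChIP-seq times differ.

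**Figure D5:**
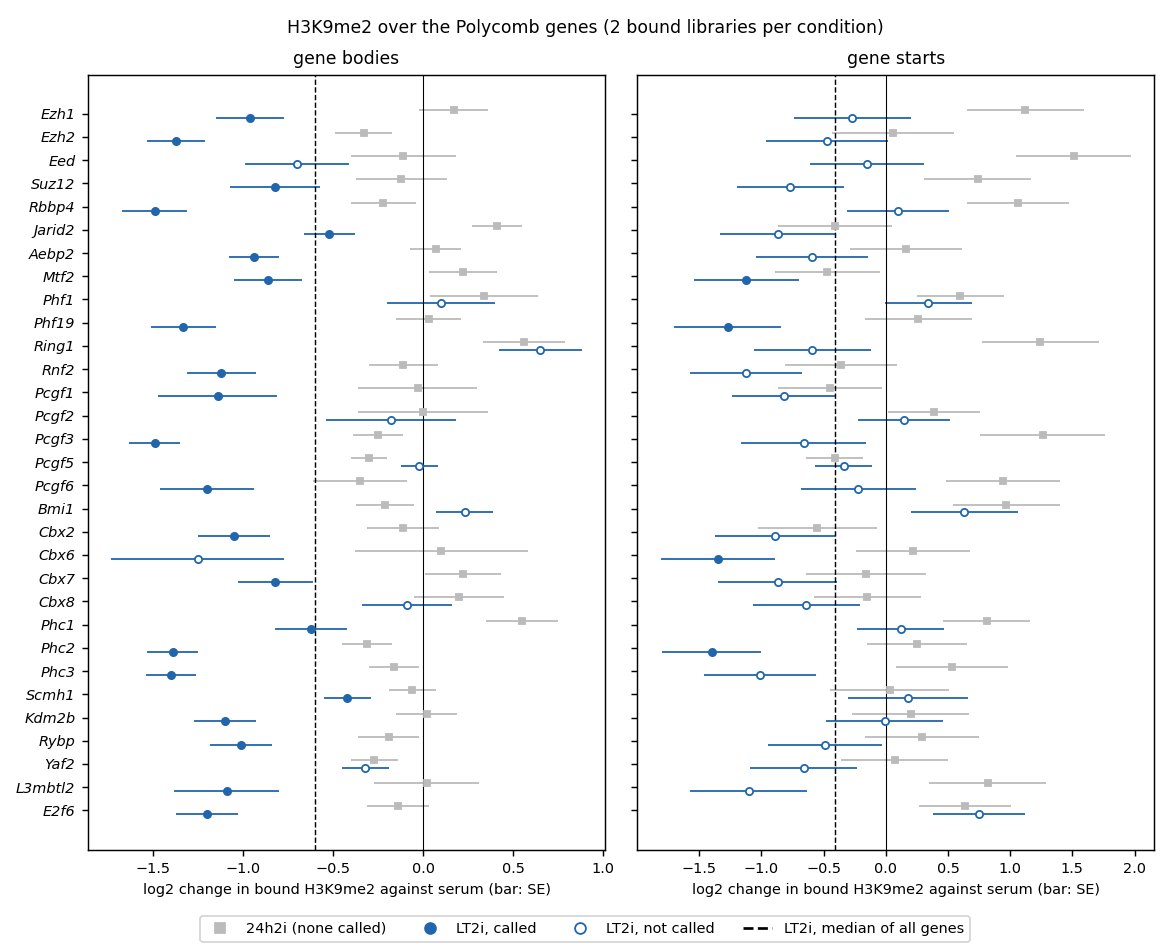
Log2 change in bound H3K9me2 against serum (x axis, bar: standard error of the fit) over the bodies and starts of the 31 Polycomb genes at 24h2i and in LT2i, with the LT2i median of all genes as a dashed line (-0.60 and -0.41). On the authors' scaling 22 bodies and 4 starts are called lower in LT2i, beside 49.4% and 22.2% of all genes. With libraries centred on their median 4 bodies are called lower and 6 higher (46.4% of all genes called), and 3 starts higher (28.2%).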

How the data were processed

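RNA libraries were made with a kit that does not mark strand and read as 50 bp single ends. Per the labels, the submitters' processing notes name Trim Galore 0.3.5, TopHat2 2.0.11 and Bowtie2, with the builds GRCm38 and NCBIM37. The sources used here do not name the counter. Per gene, the deposited table holds log2 values that the authors corrected for length and depth and set to a common 75th percentile (2.51), with genes without reads at a floor. Total reads are unknown, and without strand overlapping genes cannot be told apart. The deposited ChIP-seq table holds log2 reads in 1026637 bins of 2000 bp (GRCm38).

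Log2 values were fitted in limma 3.58.1 (R 4.3.3) with trend over all 12 libraries or the 6 bound ones, after a check on simulated data, and adjusted by Benjamini-Hochberg over all genes tested. Linear shares were computed within gene families, and for Jarid2 with Aebp2, after the values had been seen. Bisulfite files were not used. Values in every library are given for the genes called at 72 h with the largest changes (up to 12) and those called between 24 and 72 h (up to 4). Up to 6 genes of each other list are named by their change at 72 h, except for a result that is not reported here. The genes, lists and tests were chosen with earlier results of these data known. Alternatives covered scaling, filters, pseudocount, libraries in the fit and replicate number as a term.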

Additional observations from a re-analysis of the deposited data

Results flagged for a closer look

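The changes from serum at 24 and 72 h differed, by the limma contrast of 72 against 24 h at an adjusted p under 0.05, for 12 genes. The change at 72 h was above that at 24 h by 1.63 for Jarid2, 1.00 for Aebp2, 0.78 for Suz12, 0.56 for Bmi1, 0.55 for Rybp, 0.42 for Pcgf3, 0.37 for E2f6 and 0.34 for Kdm2b on the log2 scale. It was below it for Phf19 (-1.17), Phc1 (-0.74), Yaf2 (-0.48) and Pcgf1 (-0.40). Aebp2, Jarid2, Phf19 and Suz12 kept the call in every alternative run except, for Suz12, the rule that asks for a log2 change of 1. The call for Bmi1 was lost in 15 of 21 alternatives, and its difference was 0.35 (limma adjusted p = 0.0846) without 24 h library 3. The same 24 h libraries enter all 12 differences.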

How the results depend on the processing

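Of 130 counts under alternatives, 112 stayed within 1.5 times the reported count. Among these are the counts of bodies at 24h2i, where no gene at all was called as reported, so that they could hardly move. Asking also for a log2 change of 1 left 3, 4, 5 and 3 Polycomb genes at 6, 24 and 72 h and between 24 and 72 h (5.3%, 27.5%, 21% and 9.54% of all genes). A fit of the 6 libraries compared gave 12 at 6 h and 4 between 24 and 72 h (29.1% and 12.9% of all genes). Centring on the median gave 10 bodies for H3K9me2 in LT2i (46.4%). With input subtracted, which leaves the spread of the inputs out of the p-value, 1 start was called at 24h2i (Ring1). Leaving out 1 library gave 6 to 8, 18 to 25, 12 to 16 and 6 to 15 genes for the same 4 comparisons. Over all genes these fits called 10% to 19.8%, 54.4% to 71.9%, 44.7% to 59.5% and 19.7% to 54.4%. For H3K9me2 such fits leave 1 bound library in a group, and the median change of the bodies in LT2i ran from -0.98 to -0.91. All calls were kept in every alternative except the rule on size for 5 of 6 genes at 6 h, 15 of 21 at 24 h, 11 of 15 at 72 h and 4 of 12 between 24 and 72 h. For H3K9me2, the filter on input removed no bin, so that counts with and without it are the same. The depth of the RNA libraries is unknown.

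Replicate numbers were not taken to pair libraries. For this, the deviations of genes from their group mean were correlated between libraries of different groups. Pairing was to be accepted only with every same-numbered pair over 0.1, and 15 of 18 were (-0.249 to 0.813). Pairs of libraries numbered 3 ran from 0.395 to 0.813. As a hint from the data, the deviations of 8 of 12 libraries correlated best with those of their own number. With the replicate block 8, 24, 17 and 15 genes were called (20.9%, 71%, 60.9% and 47.1% of all genes), and 22 bodies (54.7%) and 4 starts (27.7%) in LT2i. No call was lost, and those added were Cbx7 and Rybp at 6 h, Rbbp4, Pcgf5 and Phc3 at 24 h, Phf1 and E2f6 at 72 h, and Phf1, Rnf2 and Cbx7 between 24 and 72 h.

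Direction changed in 38 of 2580 values of single genes, 1 of them for a gene called as reported (Kdm2b between 24 and 72 h, -0.04 with the span trend removed) and 1 past the threshold (Scmh1 at 24 h, 0.28, limma adjusted p = 0.047, span trend removed). With that trend removed Rybp was at 0.03 at 72 h, and between 24 and 72 h Ezh2 was at -0.23, Mtf2 at -0.09, Pcgf5 at -0.29, Phc2 at -0.07 and Scmh1 at -0.05. Under quantile normalisation Phc3 was at -0.02 at 6 h, Mtf2 at -0.06 at 24 h, and Ezh1 at 0.00 and Pcgf6 at 0.01 at 72 h, and with a pseudocount of 1 Pcgf5 was at 0.00 between 24 and 72 h. Without all libraries numbered 3, an alternative chosen after seeing the data, Scmh1 was at 0.05 at 6 h, and Ezh2 at -0.04, Mtf2 at -0.05 and Pcgf5 at -0.17 between 24 and 72 h, and 7, 25, 14 and 17 genes were called (15%, 70.5%, 59.1% and 47.5% of all genes). For the partner, opposing and target lists, fits with the span trend removed and without library 3 at 24 h or library 2 at 72 h were also added after seeing the data, and gave 5 to 8, 4 to 7 and 4 to 4 genes called lower at 72 h. Without the 24 h libraries, also chosen after seeing the data, 7 were called at 6 h (20%) and 17 at 72 h (59.4%).

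Leaving out 1 library turned the direction of genes not called. At 6 h these were Cbx6 (-0.17 to 0.04), Phc3 (-0.02 to 0.13), Rbbp4 (-0.27 to 0.02) and Scmh1 (-0.08 to 0.07), and at 24 h Mtf2 (-0.05 to 0.19) and Pcgf2 (-0.52 to 0.01). At 72 h they were Ezh1 (-0.03 to 0.14), Pcgf2 (-0.02 to 0.23), Pcgf6 (-0.06 to 0.00), Rbbp4 (-0.06 to 0.24) and Rybp (-0.11 to 0.02). Between 24 and 72 h they were Cbx6 (-0.01 to 0.13), Eed (-0.07 to 0.20), Ezh1 (-0.29 to 0.02), Ezh2 (-0.04 to 0.07), Mtf2 (-0.04 to 0.21) and Pcgf5 (-0.18 to 0.12). The cause of these turns was not tested.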
